A study of Mus musculus with 36 samples.

Results

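Voltage-gated sodium channels carry the inward current that starts the action potential. The members described here are the 7 genes Scn1a, Scn2a, Scn3a, Scn8a, Scn2b, Scn3b and Scn4b, chosen by name, by a rule that uses no measured value, out of the 26709 genes of the RNA table. All 7 were found, listed there as Scn1a ENSMUSG00000064329, Scn2a ENSMUSG00000075318, Scn3a ENSMUSG00000057182, Scn8a ENSMUSG00000023033, Scn2b ENSMUSG00000070304, Scn3b ENSMUSG00000049281 and Scn4b ENSMUSG00000046480. The cells were primary cortical neurons (CNs) of CD-1 mice, prepared from pooled embryos at embryonic day 15 and kept for 7 days in culture, and RNA-seq and ATAC-seq were each measured in 18 libraries, 2 for each of 9 groups. Every culture, the unstimulated controls included, was first silenced for 2 h with TTX (1 µM), which plugs the pore of these channels, and AP-5 (100 µM), which blocks NMDA receptors. The controls then stayed in AP-5 and TTX, for 3, 8 or 12 h in all, and are named by the stimulation time they match. The other cultures received BDNF (brain-derived neurotrophic factor, 10 ng/ml), a secreted protein that binds the TrkB receptor, or KCl (55 mM), which depolarizes the membrane directly, for 1, 6 or 10 h. Whether the blockers stayed in the medium during stimulation is not said outright in the sources used here. The p-values measure the spread between these libraries, which the study calls biological replicates.

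Each channel has 1 large pore-forming alpha subunit, which alone opens on depolarization, and smaller beta subunits, which span the membrane once and alter gating and the delivery of the channel to the cell surface. Of the members, 4 encode alpha subunits of the central nervous system: Scn1a (Nav1.1), prominent in inhibitory neurons, Scn2a (Nav1.2) and Scn3a (Nav1.3), prominent early in development, and Scn8a (Nav1.6), which becomes prominent at mature axon initial segments. The other three encode beta subunits: Scn2b and Scn4b, which bind the alpha subunit through a disulphide bond, and Scn3b, which binds it without one. On the mm10 build (GRCm38), Scn3a, Scn2a and Scn1a lie near each other on chromosome 2, at chr2:65457118-65567627, chr2:65620771-65767447 and chr2:66270778-66440840. Scn8a lies at chr15:100869858-101045938. The beta subunit genes lie on chromosome 9, Scn3b at chr9:40269217-40291618, Scn2b at chr9:45117782-45130070 and Scn4b at chr9:45138395-45154152.

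The libraries held 8508452 to 36699187 reads for RNA and 1241829 to 6236439 reads in peaks for ATAC. In the KCl 6 h RNA library B, 1 gene took 3.26% of all reads, against at most 0.401% for that gene in any other library. Without this library the log2 fold changes at 6 h of KCl were 1.90 for Scn1a, 0.17 for Scn2a, 0.36 for Scn3a, -0.27 for Scn8a, -0.40 for Scn2b and -0.29 for Scn3b, each on the same side of the threshold as with it. The neuron markers (5 genes, among them Map2 and Tubb3) were present in every library. Markers of other cells were present too: in the controls the summed level of 5 astrocyte markers was 10558 to 15187, that of 4 markers of dividing progenitors 6331 to 8906 and that of 7 markers of the oligodendrocyte lineage 5964 to 6453, while 4 microglia markers summed to at most 102 and 3 endothelial markers to at most 29.3 in any library. All 5 astrocyte markers and 3 of the 4 progenitor markers were called lower at 6 h of BDNF, as were 4 and 3 of them at 6 h of KCl. Over all genes tested, 21.1% were called lower at 6 h of BDNF and 33.1% at 6 h of KCl. The part of astrocytes and progenitors in the results was not tested. The immediate early genes Fos and Arc rose in all 6 comparisons with the controls. In bulk RNA, fewer cells of a type and less RNA per cell cannot be told apart.

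The RNA values are read counts scaled to a common library size (normalised read counts). Genes with a mean of at least 10 over the 18 libraries were tested, 16209 in all, and 6 of the 7 members passed. Scn4b did not, with a mean of 4.22. Log2 fold changes are differences of log2(normalised read count + 1), given with their standard error (SE) and an adjusted p-value (limma, Benjamini-Hochberg over all genes tested, two-sided), and a gene was called at an adjusted p below 0.1. Each stimulus and timepoint (n = 2) was compared with the 6 controls of all times as 1 group, so the 6 comparisons share their controls.

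In the controls the members differed widely in level. Per kb of exonic length the normalised read count was 485 ± 28.4 (SD, n = 6) for Scn3b, 160.5 ± 11.1 for Scn2a, 145 ± 13.3 for Scn3a, 88.4 ± 4.84 for Scn8a, 71.4 ± 5.59 for Scn2b, 33.8 ± 3.49 for Scn1a and 0.588 ± 0.403 for Scn4b. Neighbours in this order did not overlap over the 6 control libraries, except Scn2a (146 to 174 per kb) and Scn3a (129 to 161 per kb). The length is that of all annotated exons of a gene merged, so a gene whose transcripts use only part of it is set too low.

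**Figure D1:**
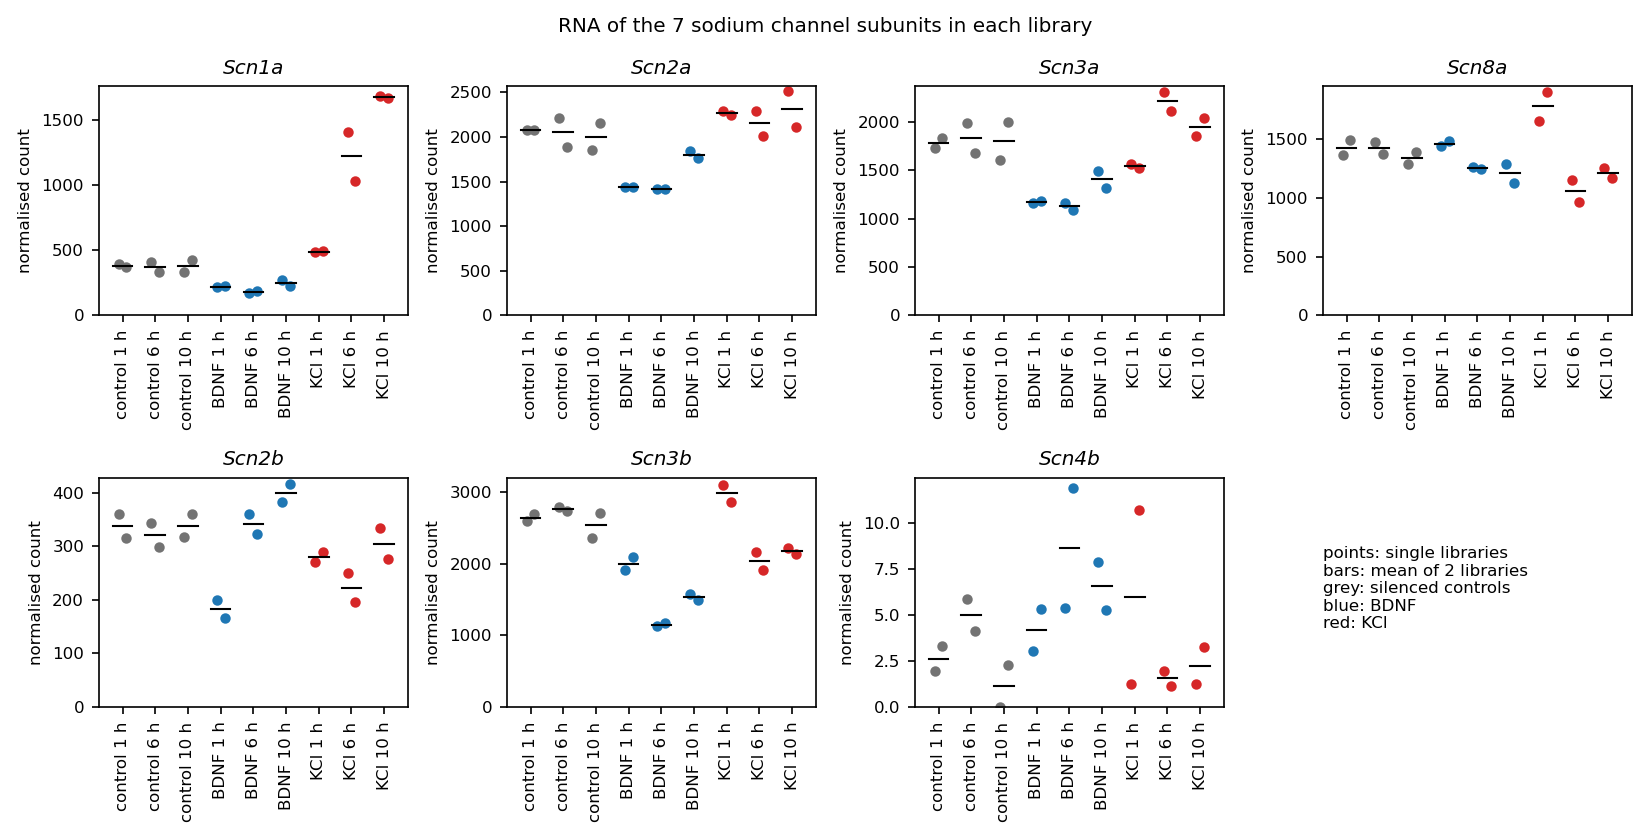
Normalised read count of the 7 members in each of the 18 RNA libraries, by group, on linear axes that start at 0 and differ between genes; points are libraries (grey controls, blue BDNF, red KCl) and short bars are means of 2 libraries. Scn1a lies above its controls in all 6 KCl libraries and below them in all 6 BDNF libraries, and the axis of Scn4b covers a few normalised reads only.

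Most of the subunits were lower after BDNF, and after KCl they moved in both directions. After BDNF, 0 members were called higher and 5 lower of the 6 tested at 1 h, 0 and 4 at 6 h, then 1 and 5 at 10 h. Over all genes tested, 21.3%, 22.1% and 21.1% were called higher and 19.0%, 21.1% and 19.5% lower. After KCl, 4 members were called higher and 2 lower at 1 h, 2 and 3 at 6 h, then 2 and 2 at 10 h. Over all genes, 26.5%, 33.4% and 29.0% were called higher and 28.2%, 33.1% and 28.2% lower. The median log2 fold change of the 6 members was -0.56, -0.60 and -0.29 after BDNF and 0.16, -0.15 and -0.0076 after KCl, while that of all genes lay between -0.0066 and 0.0075. Of the 30 calls, 21 held under every alternative setting, and the other 9 were also lost against the controls of the same time only.

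**Figure D2:**
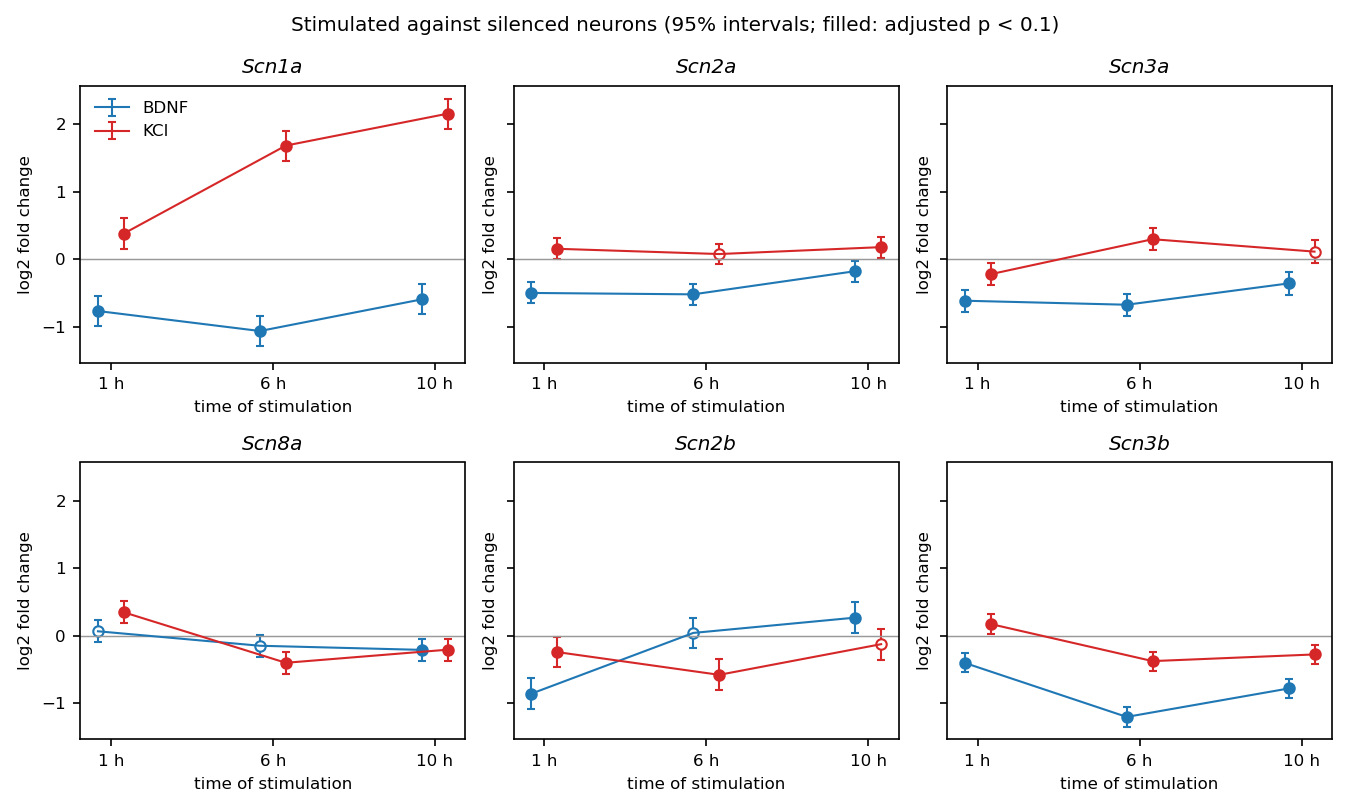
Log2 fold change against the 6 controls with its 95% interval (limma) for the 6 tested members at 1, 6 and 10 h of BDNF and KCl; filled points are called at an adjusted p below 0.1, and the 3 times are drawn at equal spacing. Scn1a reaches 2.16 at 10 h of KCl and -1.06 at 6 h of BDNF, and Scn3b reaches -1.20 at 6 h of BDNF.

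Scn1a moved in opposite directions under the 2 stimuli and had the largest change of any member. Its normalised read count in the 6 controls had a lowest value of 329, a median of 382 and a highest of 422. After BDNF the pairs of libraries gave 216 and 224 at 1 h, 172 and 186 at 6 h, then 229 and 268 at 10 h. After KCl they gave 483 and 494 at 1 h, 1034 and 1407 at 6 h, then 1666 and 1683 at 10 h. No BDNF or KCl library overlapped the controls. Under BDNF Scn1a fell by 0.77 on the log2 scale at 1 h (SE 0.11, limma adjusted p = 7.6e-06), by 1.06 at 6 h (9.0e-08) and by 0.60 at 10 h (2.2e-04). Under KCl it rose by 0.38 at 1 h (adjusted p = 0.0058), by 1.68 at 6 h (2.5e-11) and by 2.16 at 10 h (1.1e-12), the last being 4.46-fold with a 95% interval of 1.93 to 2.38 on the log2 scale. All 6 calls held under every alternative setting.

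The summed level of inhibitory neuron markers lay above the controls under KCl, where Scn1a rose, and under BDNF, where Scn1a fell. It was lower at 10 h than at 6 h of KCl, while Scn1a was higher. The summed level of 7 such markers, among them Gad1, Gad2 and Sst, was 11546 to 14321 in the controls, 14570 to 17081, 19978 to 20310 and 17883 to 19651 in the KCl libraries at 1, 6 and 10 h, and 15734 to 17074 in the BDNF libraries. Of the 6 that were tested, 4 were called higher in each of the 6 comparisons, and 2 were called lower at 6 and 10 h of KCl. Over all genes tested, 21.1% to 33.4% were called higher in these comparisons, and 33.1% and 28.2% lower at 6 and 10 h of KCl. Sst alone ranged from 1611 to 7586 over the 18 libraries. Pvalb, which marks the fast-spiking interneurons of the adult cortex, was at 0 to 2.74 in all 18 libraries. Under BDNF the summed level of these markers and Scn1a thus moved in opposite directions. The part of the markers' cells in the change of Scn1a was not tested.

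Scn2a, the most abundant alpha subunit per kb in the controls, fell under BDNF. Its normalised read count in the controls had a lowest value of 1857, a median of 2074 and a highest of 2212. The BDNF libraries gave 1437 and 1445 at 1 h, 1419 and 1422 at 6 h, then 1765 and 1840 at 10 h, all below the lowest control. It fell by 0.50 at 1 h (SE 0.07, limma adjusted p = 1.7e-05) and by 0.52 at 6 h (1.1e-05). At 10 h the difference of -0.18 had an adjusted p of 0.071, and the call was lost without any of 5 libraries (control 1 h B, 6 h A and 10 h B, BDNF 10 h A and B), where the adjusted p was 0.103 to 0.345 (0.0387 to 0.345 over all alternatives). After KCl the libraries gave 2241 and 2296 at 1 h, 2015 and 2292 at 6 h, then 2115 and 2517 at 10 h. The differences were small: 0.15 at 1 h (adjusted p = 0.096), 0.08 at 6 h (0.39) and 0.18 at 10 h (0.052). The call at 1 h was lost without any of 5 libraries (control 1 h B, 6 h B and 10 h A, KCl 1 h A and B; 0.106 to 0.310, and 0.0619 to 0.334 over all alternatives) and by DESeq2. The call at 10 h was lost without KCl 10 h library A (adjusted p = 0.684, alternatives 0.0132 to 0.684), and the difference was 0.30 without library B.

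Scn3a also fell under BDNF, at each timepoint. In the controls it had a lowest value of 1602, a median of 1785 and a highest of 2001. The BDNF libraries gave 1165 and 1182 at 1 h, 1089 and 1164 at 6 h, then 1318 and 1491 at 10 h, again all below the lowest control. It fell by 0.62 at 1 h (SE 0.08, limma adjusted p = 2.8e-06), by 0.68 at 6 h (8.4e-07) and by 0.36 at 10 h (0.0016). Under KCl the libraries gave 1523 and 1560 at 1 h, 2112 and 2308 at 6 h, then 1848 and 2043 at 10 h, so the 1 h libraries lay below and the 6 h libraries above all controls. The difference was -0.22 at 1 h (adjusted p = 0.026), a call lost without KCl 1 h library B (0.142, alternatives 0.0095 to 0.142). Scn3a rose by 0.30 at 6 h (0.0030) and differed by 0.11 at 10 h (0.26).

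The summed level of 5 excitatory neuron markers, among them Slc17a7 and Neurod6, fell with Scn2a and Scn3a at 1 h of BDNF. At 6 and 10 h of BDNF it was not below the controls. At 6 h of KCl it lay above all controls, as did Scn3a. The sum was 5193 to 5930 in the controls, 3817 and 3867 at 1 h of BDNF, 5974 and 5980 at 6 h of BDNF, and 7062 and 7139 at 6 h of KCl. Of the 5 markers, 2 were called higher and 3 lower at 1 h of BDNF, against 21.3% and 19.0% of all genes tested. The part of these markers in these changes was not tested.

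Scn8a was the only alpha subunit not called at 1 or 6 h of BDNF. Its controls had a lowest value of 1282, a median of 1379 and a highest of 1486. The BDNF libraries gave 1434 and 1478 at 1 h, within the control range, 1245 and 1264 at 6 h, then 1127 and 1283 at 10 h. The log2 differences were 0.06 at 1 h (SE 0.08, 95% interval -0.10 to 0.23, limma adjusted p = 0.57), -0.15 at 6 h (-0.31 to 0.01, 0.14) and -0.21 at 10 h (0.041). The last call was lost without BDNF 10 h library B (0.463, alternatives 0.0272 to 0.463). Under KCl the libraries gave 1647 and 1900 at 1 h, 962 and 1152 at 6 h, then 1162 and 1249 at 10 h, so that the direction turned between 1 h and 6 h. Scn8a rose by 0.35 at 1 h (adjusted p = 8.2e-04) and fell by 0.40 at 6 h (1.2e-04). At 10 h it was lower by a log2 difference of -0.21 (0.029), a call lost without KCl 10 h library B (0.253, alternatives 0.0181 to 0.266).

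The make-up of the alpha subunit transcripts shifted with these changes. Summed over the 4 alpha subunits, the normalised read count per kb was 428 ± 30.9 (SD, n = 6) in the controls. Library values were 294 and 301 after 6 h of BDNF and 553 and 576 after 10 h of KCl. In the controls Scn1a made up 7.49 to 8.31% of this sum, Scn2a 37.1 to 38.5%, Scn3a 32.8 to 35.3% and Scn8a 19.3 to 21.8%. The share of Scn1a was 5.13 and 5.66% after 6 h of BDNF, 19.3 and 22.4% after 6 h of KCl, and 26.2 and 27.0% after 10 h of KCl. That of Scn8a was 28.7 and 29.2% after 1 h of BDNF and 12.7 and 12.9% after 6 h of KCl. The ratio of Scn1a to Scn2a per kb was 0.210 ± 0.00857 (SD, n = 6) in the controls and 0.764 and 0.900 in the KCl 10 h libraries. These shares follow from the values above and were not tested.

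**Figure D3:**
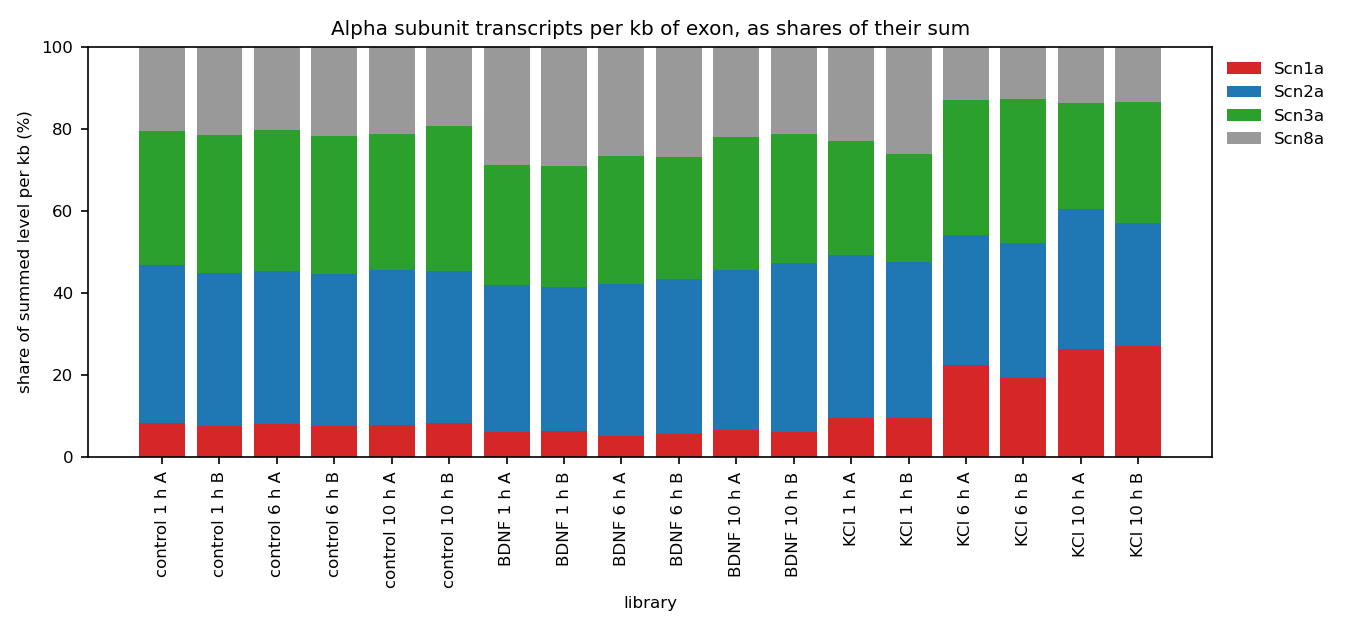
Share of each alpha subunit in the summed normalised read count per kb of the 4 alpha subunits, in percent, as 1 stacked bar for each of the 18 RNA libraries. The mean Scn1a share is 7.89% in the controls and 26.6% after 10 h of KCl, and the mean Scn8a share is 28.9% after 1 h of BDNF and 12.8% after 6 h of KCl.

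Scn2b fell at 1 h of BDNF and was back in the control range at 6 h. In the controls its normalised read count had a lowest value of 299, a median of 330 and a highest of 361. The BDNF libraries gave 166 and 201 at 1 h, 323 and 360 at 6 h, then 383 and 416 at 10 h. The 1 h libraries thus lay below, the 6 h libraries within and the 10 h libraries above the control range. Scn2b fell by 0.86 at 1 h (SE 0.11, limma adjusted p = 2.3e-06), a 1.81-fold reduction. It did not differ past the threshold at 6 h (0.04, 95% interval -0.19 to 0.27, adjusted p = 0.81). The difference of 0.27 at 10 h (0.067) was lost without any of 5 libraries (control 1 h B, 6 h B and 10 h A, BDNF 10 h A and B; 0.102 to 0.374, alternatives 0.0474 to 0.374). KCl gave 272 and 289 at 1 h, 196 and 251 at 6 h, then 276 and 335 at 10 h. Scn2b fell by 0.58 at 6 h of KCl (1.0e-04). The difference was -0.24 at 1 h (0.073), lost without any of 5 libraries (control 1 h A, 6 h A and 10 h B, KCl 1 h A and B; 0.108 to 0.310, alternatives 0.0499 to 0.310), and -0.13 at 10 h (0.36).

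Scn3b, the member with the highest level per kb, had the largest fall under BDNF. Its controls had a lowest value of 2364, a median of 2703 and a highest of 2799. The BDNF libraries gave 1907 and 2096 at 1 h, 1129 and 1167 at 6 h, then 1494 and 1581 at 10 h, all below every control. Scn3b fell by 0.40 at 1 h (SE 0.07, limma adjusted p = 7.8e-05), by 1.20 at 6 h (1.4e-11, a 2.30-fold reduction) and by 0.78 at 10 h (1.8e-08). The KCl libraries gave 2859 and 3108 at 1 h, 1918 and 2162 at 6 h, then 2142 and 2220 at 10 h. Scn3b was higher by 0.17 at 1 h of KCl (0.042), a call lost without KCl 1 h library A (0.353, alternatives 0.0263 to 0.353), and it fell by 0.38 at 6 h (6.3e-05) and by 0.28 at 10 h (0.0019). The 5 of its 6 calls other than KCl at 1 h held under every alternative.

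Scn4b was barely detected. The controls held 6, 3, 6, 4, 0 and 2 reads, and the 12 stimulated libraries between 1 and 13 reads. The control 10 h library A was at 0, which allows up to 3 reads or a normalised read count of 3.60, counting error only. Without the filter on low values, limma called Scn4b in none of the 6 comparisons. Its estimate at 6 h of BDNF was 1.43 (SE 0.63, limma adjusted p = 0.125). At this depth a change of that size was not told apart from none.

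The difference between the stimuli was tested directly, with no control values in the difference itself. Its spread was estimated over all 18 RNA libraries, the controls included. BDNF minus KCl was called lower for 6 of 6 tested members at 1 h (0 higher), for 4 at 6 h (2 higher) and for 4 at 10 h (1 higher), while 18.2%, 27.8% and 21.8% of all genes were called lower and 24.6%, 29.6% and 23.1% higher. Scn1a was lower in BDNF by a log2 difference of -1.15 at 1 h (SE 0.13, limma adjusted p = 4.3e-07), -2.75 at 6 h (7.2e-13) and -2.75 at 10 h (1.5e-12), the last a 6.73-fold difference. Scn2a, Scn3a and Scn3b were lower in BDNF at all 3 timepoints, with log2 differences of -0.65, -0.60 and -0.36 for Scn2a, -0.39, -0.97 and -0.47 for Scn3a and -0.58, -0.83 and -0.50 for Scn3b. The value for Scn2a at 10 h was -0.23 without KCl 10 h library A.

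Scn2b and Scn8a turned direction between the stimuli over time. Scn2b was lower in BDNF at 1 h (-0.62, limma adjusted p = 9.8e-04) and higher at 6 h (0.62, 5.8e-04) and 10 h (0.39, 0.025). The call at 10 h was lost without BDNF 10 h library B or KCl 10 h library B (0.153 to 0.259, alternatives 0.0145 to 0.259). Scn8a was lower in BDNF at 1 h (-0.28, 0.024) and higher at 6 h (0.25, 0.031), and at 10 h the difference was near 0 (95% interval -0.20 to 0.19, adjusted p = 0.98). Both Scn8a calls depended on single libraries: the 1 h call was lost without BDNF 1 h library A or KCl 1 h library B (0.125 to 0.261, alternatives 0.0098 to 0.261), and the 6 h call without BDNF 6 h library A or KCl 6 h library B (0.118 to 0.354, alternatives 0.0035 to 0.354), with a difference of 0.38 without KCl 6 h library A.

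Within a stimulus, more calls over time fell between 1 h and 6 h than later, among the members as among all genes. From 1 h to 6 h of BDNF, 2 of 6 members were called (33.6% of all genes): Scn2b rose by 0.90 (limma adjusted p = 3.1e-05) and Scn3b fell by 0.80 (2.7e-07). From 6 h to 10 h of BDNF, 1 member was called (0.216% of all genes), Scn3b with 0.42 (0.057), which was lost without any one of the 4 libraries compared (0.278 to 0.541, alternatives 0.0021 to 0.541). From 1 h to 6 h of KCl, 5 of 6 were called (59.6% of all genes): Scn1a rose by 1.30 and Scn3a by 0.52, Scn8a fell by 0.75 and Scn3b by 0.55, and Scn2b was lower by -0.34 (0.040), a call lost without KCl 1 h library B or KCl 6 h library B (0.167 to 0.410, alternatives 0.0062 to 0.410) and at -0.52 without KCl 6 h library A. From 6 h to 10 h of KCl, 2 were called (22.5% of all genes). Scn1a was higher by 0.47 (0.019), lost without KCl 6 h library B (0.301) or KCl 10 h library A (0.123), with alternatives from 0.0010 to 0.301. Scn2b was higher by 0.45 (0.027), lost without KCl 6 h library B or KCl 10 h library A (0.292 in each case, alternatives 0.0039 to 0.292).

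Whether the change over time itself differed between the stimuli was tested as an interaction. For the change from 1 h to 6 h, 5 of 6 members were called (48.1% of all genes), with KCl minus BDNF at 1.60 for Scn1a (limma adjusted p = 7.3e-07), 0.58 for Scn3a (0.0020), -0.53 for Scn8a (0.0029), -1.24 for Scn2b (2.3e-05) and 0.25 for Scn3b (0.097). The Scn3b call was lost without any of 5 libraries (BDNF 1 h B, BDNF 6 h A and B, KCl 1 h B, KCl 6 h A; 0.131 to 0.309, alternatives 0.0311 to 0.309). For the change from 6 h to 10 h, 1 member was called (7.66% of all genes), Scn3a at -0.50 (0.046), lost without BDNF 6 h library B, BDNF 10 h library A or KCl 10 h library A (0.159 to 0.199, alternatives 0.0220 to 0.199). In the silenced controls no change over time was detected: limma called 0 of 16209 genes (0% in each comparison) at 6 h or at 10 h against 1 h. At an unadjusted p below 0.05 it counted 164 and 181 genes, and edgeR and DESeq2 also called 0.

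Among the further subunit genes of the family, Scn7a, an alpha subunit gene expressed in glia, was lower at 1 h of KCl (-0.91, limma adjusted p = 0.038). That call was lost without KCl 1 h library A (0.327, alternatives 0.0296 to 0.327).

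Genes that act with the channels were read from 6 lists. Over all genes tested, 22.1% were called higher and 21.1% lower at 6 h of BDNF, and 33.4% and 33.1% at 6 h of KCl. The counts of lists this short stand beside these shares as descriptions, and none is read as particular to a list. The sodium leak channel complex (4 genes, all tested) carries a background sodium current. At 6 h of BDNF 1 was called higher and 2 lower, and at 6 h of KCl 0 and 4. Unc80 rose by 0.51 at 10 h of BDNF (limma adjusted p = 7.0e-04) and fell by 0.42 at 6 h of KCl (0.0014), Unc79 fell by 0.41 at 6 h of KCl (2.0e-04), and Fam155a fell by 0.54 at 6 h of BDNF (3.8e-05). Of 8 scaffold genes of the axon initial segment and node, where the channels are anchored, 1 was higher and 3 lower at 6 h of BDNF, and 3 and 2 at 6 h of KCl. Cntn1, a cell adhesion molecule that binds beta subunits, fell by 0.68 (1.7e-07) and the anchoring protein gene Ank2 by 0.66 (4.0e-05) at 6 h of BDNF. Sptbn4, the beta-IV spectrin gene, fell by 1.21 at 6 h of KCl (6.5e-04) and by 0.65 there without KCl 6 h library B.

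The fibroblast growth factor homologous factors bind the tail of the alpha subunit inside the cell. Of these 4 genes, 0 were called higher and 3 lower at 6 h of BDNF, and 0 and 2 at 6 h of KCl. Fgf11 fell by 0.76 at 6 h of KCl (limma adjusted p = 3.5e-06) and Fgf13 by 0.32 at 10 h of BDNF (0.0011). Fgf14 was lower at 6 h of BDNF (-0.46, 0.0049), a call lost without BDNF 6 h library B (0.104, alternatives 0.0026 to 0.104). Of 7 genes for channel kinases, calmodulins and a ubiquitin ligase, 2 were higher and 2 lower at 6 h of BDNF, and 4 and 1 at 6 h of KCl. Nedd4l, a ubiquitin ligase that removes sodium channels from the membrane, fell by 0.86 at 6 h of BDNF (9.0e-10). Csnk2b, a subunit of casein kinase 2, rose by 0.52 at 6 h of KCl (5.8e-06), and Calm2 by 0.45 at 1 h of KCl (4.3e-05).

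Of 5 genes for proteases that cut beta subunits, 1 was higher and 0 lower at 6 h of BDNF. Bace1, the beta-secretase, rose by 0.33 at 6 h of BDNF (limma adjusted p = 0.0013). Psen2, a presenilin gene, fell by 0.74 at 6 h of KCl (1.7e-05). Of 9 regulators of transcription and RNA processing that are known to act on sodium channel genes, 0 were higher and 7 lower at 6 h of BDNF, and 1 and 3 at 6 h of KCl. Rest, a repressor of neuronal genes, Scn2a among them, rose by 0.75 at 1 h of BDNF (4.5e-05) and fell by 0.52 at 6 h (0.0018) and by 0.51 at 10 h (0.0026). Under KCl Rest fell by 0.84 at 6 h (3.7e-06) and by 1.07 at 10 h (2.6e-07). The splicing regulator genes Rbfox1 and Nova2 fell, Rbfox1 by 0.99 at 10 h of KCl (2.1e-09) and Nova2 by 0.47 at 6 h of BDNF (8.9e-05).

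The genes most like each member were ranked by Pearson r of mean log2 values over the 9 groups. The values are descriptions with no test: there are only 9 points, all groups come from the same set of libraries and 16209 genes were ranked. For Scn1a they were Kit (r = 0.997), a receptor tyrosine kinase gene, and Chodl (0.994). Kit had a mean normalised read count of 716 in the controls, 514 at 6 h of BDNF and 1697 at 10 h of KCl. For Scn2a they were Nap1l3 (0.975) and Mcf2l (0.971), for Scn3a Chrna5 (0.991), a nicotinic receptor subunit gene, and Iigp1 (0.984), for Scn8a Dmxl2 (0.978) and Maged2 (0.968), for Scn2b Ydjc (0.966) and Tmem19 (0.960), and for Scn3b Gm14204 (0.990) and Mbnl3 (0.978), a splicing regulator gene. Among the members, Scn2a and Scn3a were most alike (0.872), followed by Scn1a and Scn3a (0.822) and Scn1a and Scn2a (0.785), while Scn8a with Scn1a gave -0.349.

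Open chromatin was read from ATAC peaks that lie in a member gene or within 10 kb of it. There were 19 such peaks, 1 of them within reach of both Scn2b and Scn4b, and 18 had a mean count of at least 10 and were tested among 56383 peaks (edgeR quasi-likelihood test on counts scaled by LOESS, against the 6 controls). In the order 1, 6 and 10 h, BDNF gained 3, 3 and 3 peaks and closed 2, 0 and 1, and KCl gained 0, 0 and 1 and closed 0, 3 and 0. Over all peaks, 16.4%, 9.39% and 8.35% were called after BDNF and 7.96%, 6.85% and 7.10% after KCl, both directions together. By direction, 6259, 4079 and 3607 of the 56383 peaks gained and 2994, 1217 and 1102 closed after BDNF. After KCl, 2683, 2717 and 2832 gained and 1804, 1145 and 1169 closed. With DESeq2 size factors in place of LOESS, 3266 peaks were called higher and 2374 lower over all peaks at 6 h of KCl, against 2717 and 1145, and 3934 and 3308 at 10 h of KCl, against 2832 and 1169. The ATAC columns carry no replicate mark, so A and B name them by column order, and BDNF was not tested against KCl here. Of the 16 peak calls, 4 held under every alternative.

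The 3 peaks with higher counts and the smallest adjusted p at 1 h of BDNF lay in introns of Scn2a and Scn8a, and their sequences are shown because these are the gains described next. Each line gives the central 300 bases of a peak on the forward strand of GRCm38. Capitals mark matches of TGANTCA, with any base at N, searched on both strands. This is a looser pattern than the usual motif of the AP-1 factors (Fos and Jun proteins), which has C or G at N. The windows are chr2:65722357-65722656 for Scn2a, chr15:100910366-100910665 for the first and chr15:100923524-100923823 for the second Scn8a peak.
Scn2a peak 101.7 kb from the gene start: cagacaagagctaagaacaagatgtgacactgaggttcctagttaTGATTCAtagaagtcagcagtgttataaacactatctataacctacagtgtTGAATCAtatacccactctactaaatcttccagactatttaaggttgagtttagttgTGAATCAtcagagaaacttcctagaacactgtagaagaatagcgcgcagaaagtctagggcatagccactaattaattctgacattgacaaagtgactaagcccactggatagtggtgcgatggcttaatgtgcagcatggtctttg
Scn8a peak 40.7 kb from the gene start: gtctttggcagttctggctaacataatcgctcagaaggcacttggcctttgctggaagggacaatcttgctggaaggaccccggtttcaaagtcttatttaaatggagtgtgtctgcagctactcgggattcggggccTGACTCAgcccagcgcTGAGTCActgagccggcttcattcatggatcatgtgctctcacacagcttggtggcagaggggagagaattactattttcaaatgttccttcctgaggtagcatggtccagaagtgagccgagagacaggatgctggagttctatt
Scn8a peak 53.8 kb from the gene start: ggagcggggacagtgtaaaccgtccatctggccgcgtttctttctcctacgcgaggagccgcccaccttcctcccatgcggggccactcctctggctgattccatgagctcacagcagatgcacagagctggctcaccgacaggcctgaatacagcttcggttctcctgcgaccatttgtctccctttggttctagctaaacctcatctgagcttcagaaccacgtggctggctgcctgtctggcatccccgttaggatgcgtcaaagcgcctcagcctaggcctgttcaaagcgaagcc
The Scn2a window held 3 matches, the first Scn8a window 2 and the second none. Those of Scn2a all have A or T at N, and those of Scn8a have C and G. Over the central windows of all tested peaks, 16.3% held at least 1 match to this looser pattern. The other motifs searched, TGACGTCA of CREB (in 0.997% of windows) and GCGNGGGCG of EGR factors (3.87%), were in none of these 3 windows. A match is a description of the letters and not a site of binding.

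The Scn2a intronic peak at chr2:65722347-65722667 had the largest called log2 gain of the members' peaks. Its scaled count was 4.57 to 10.7 in the 6 controls (5 to 9 reads). After BDNF it was 27.2 and 42.0 at 1 h, 24.2 and 32.4 at 6 h, then 22.1 and 40.3 at 10 h, all above every control. The KCl libraries ranged from 3.40 to 17.9. Opening rose by 2.15 on the log2 scale at 1 h of BDNF (SE 0.40, edgeR adjusted p = 1.2e-05), by 1.84 at 6 h (6.1e-04) and by 1.97 at 10 h (8.3e-04), the last of which was lost without BDNF 10 h library A (0.230, alternatives 7.0e-05 to 0.230). Scn2a RNA fell under BDNF at 1 and 6 h, so opening of this peak and the level of the RNA moved in opposite directions.

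Of the Scn8a peaks, the one at chr15:100910350-100910682 had a scaled count of 12.0 to 20.3 in the controls. After BDNF it was 38.0 and 61.5 at 1 h, 31.4 and 31.5 at 6 h, then 26.7 and 32.9 at 10 h. It gained 1.54 at 1 h (SE 0.32, edgeR adjusted p = 6.7e-05). At 6 h the difference was 0.89 (0.089), lost without any of 6 libraries (control 1 h A and B, 6 h A and 10 h B, BDNF 6 h A and B; 0.1004 to 0.354, alternatives 0.0672 to 0.364). The one at chr15:100923499-100923849 was 14.0 to 26.2 in the controls and 64.4 and 65.3 at 1 h of BDNF, 34.1 and 64.0 at 6 h, then 36.5 and 57.7 at 10 h. It gained 1.59 at 1 h (SE 0.29, 5.0e-06), 1.16 at 6 h (0.0041, lost without BDNF 6 h library A, 0.565, alternatives 0.0022 to 0.565) and 1.15 at 10 h (0.013, lost without BDNF 10 h library B, 0.456, alternatives 0.0059 to 0.456). Scn8a RNA did not differ past the threshold at 1 or 6 h of BDNF.

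**Figure D4:**
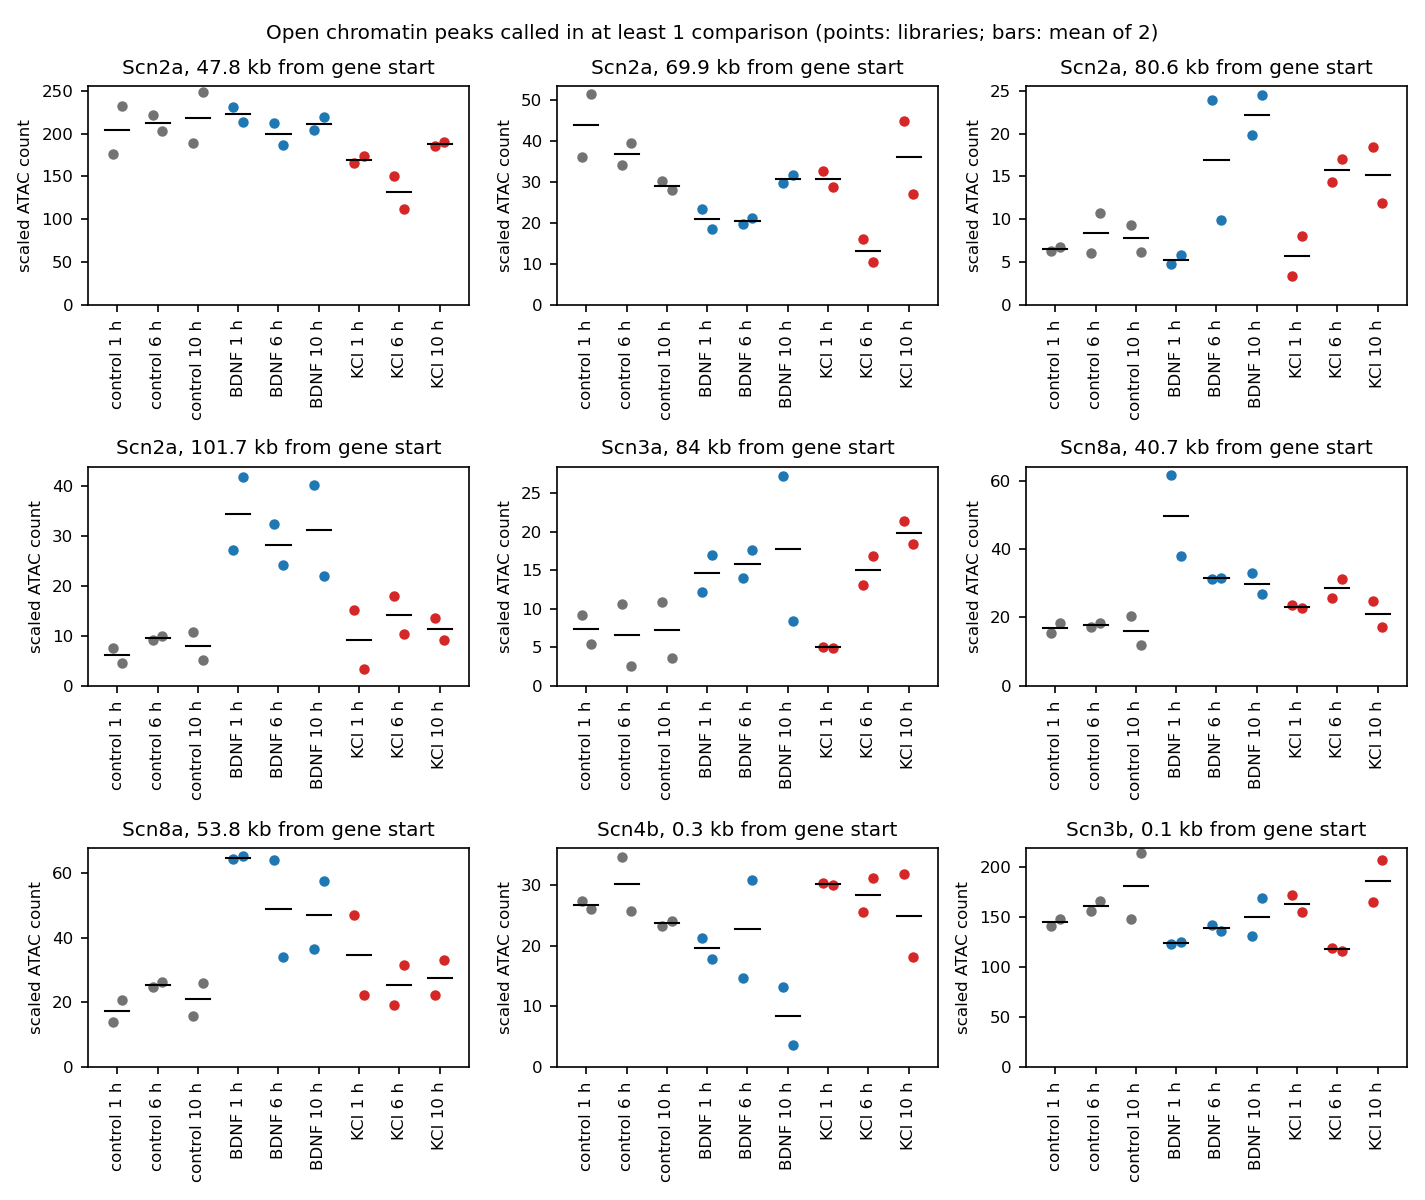
LOESS-scaled ATAC count in each library for the 9 peaks of the members that were called in at least 1 comparison, by group, named by their distance from the gene start; points are libraries and bars are means of 2, and the axes differ between peaks. The Scn2a peak 101.7 kb from the gene start and the Scn8a peaks at 40.7 and 53.8 kb lie above all 6 controls in the BDNF libraries at every time, and the Scn2a promoter peak is lowest after 6 h of KCl.

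Promoter peaks changed less. The peak at an inner start of Scn2a (chr2:65668267-65668939), the highest of the members' peaks, had a scaled count of 177 to 249 in the controls and 112 and 151 after 6 h of KCl. It fell by 0.62 at 6 h of KCl (SE 0.15, edgeR adjusted p = 0.0034), a call lost without KCl 6 h library B (0.116, alternatives 4.5e-05 to 0.116). That library was the shallowest of the ATAC set and held 39 reads there. The RefSeq sequence of the 250 bases before this start (GRCm38.p6, forward strand, chr2:65668436-65668685) is shown because the falling peak covers it. It held no match to the 3 motifs, against 6.75% of 32851 promoters of this length with TGANTCA, 1.55% with TGACGTCA and 4.7% with GCGNGGGCG.
Scn2a promoter: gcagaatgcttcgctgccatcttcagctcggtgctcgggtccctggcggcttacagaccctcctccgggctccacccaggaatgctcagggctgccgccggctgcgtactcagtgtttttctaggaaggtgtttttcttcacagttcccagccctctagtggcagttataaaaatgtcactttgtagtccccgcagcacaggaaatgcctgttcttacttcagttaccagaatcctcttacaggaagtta
RefSeq entries were matched for 5 of the 7 members, with 7 starts between them. Scn3a and Scn3b had none.

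The Scn3b promoter peak (chr9:40268877-40269657) was 141 to 215 in the controls, 123 and 125 at 1 h of BDNF and 116 and 120 at 6 h of KCl. The difference was -0.39 at 1 h of BDNF (SE 0.15, edgeR adjusted p = 0.062), lost without control 10 h library B, BDNF 1 h library A or BDNF 1 h library B (0.204 to 0.308, alternatives 0.0159 to 0.529), and -0.46 at 6 h of KCl (0.094), lost without control 6 h library B, control 10 h library B or either KCl 6 h library (0.113 to 0.391, alternatives 0.0122 to 0.391). Both directions match those of Scn3b RNA in these comparisons. The peak was called in no other comparison. Its differences there were -0.23 and -0.10 at 6 and 10 h of BDNF, and 0.0029 and 0.20 at 1 and 10 h of KCl. At 6 h of BDNF Scn3b RNA had its largest fall, and at 10 h of KCl the RNA fell while the peak was slightly higher. The promoter peaks of Scn3a (chr2:65567265-65567717), Scn8a (chr15:100870351-100871501) and the outer start of Scn2a (chr2:65620638-65620980) were called in none of the 6 comparisons.

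Neither peak of Scn1a was called, although its RNA changed most. The peak at an inner start (chr2:66409809-66410254) had a scaled count of 23.2 to 52.1 in the controls and 14.5 and 24.1 at 10 h of KCl (log2 difference -0.84, SE 0.37, edgeR adjusted p = 0.20). The peak near the outer start (chr2:66440104-66440431) had 13.4 to 40.7 in the controls and 26.0 and 28.1 at 10 h of KCl (0.04, SE 0.35, 0.97). With 10 to 61 reads per library in these peaks, small changes were not detectable at this depth.

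The remaining called peaks each lost their calls without single libraries. An Scn3a intronic peak (chr2:65483590-65483741) had 2 to 9 reads in the controls and scaled counts of 18.3 and 21.3 at 10 h of KCl (1.51, edgeR adjusted p = 0.049), a call lost without either KCl 10 h library (0.198 to 0.354, alternatives 0.0011 to 0.354). This Scn3a peak was not called after BDNF, where it differed by 1.08, 1.20 and 1.31 at 1, 6 and 10 h (edgeR adjusted p = 0.140, 0.127 and 0.134). Nor was it called at 6 h of KCl (1.05, 0.32) or 1 h of KCl (-0.46, 0.73). The BDNF differences passed the threshold under TMM, no filter and DESeq2, and that at 6 h of KCl under TMM and DESeq2. A peak in an exon of Scn4b, within 10 kb of Scn2b too (chr9:45138527-45138855), had scaled counts of 23.3 to 34.6 in the controls and 3.63 and 13.1 at 10 h of BDNF (-1.77, 0.011). That call was lost without BDNF 10 h library B (0.437, alternatives 0.0092 to 0.437), and the difference was -2.85 without library A. The other called Scn2a intronic peaks are named after their values were seen. One (chr2:65690552-65690865) was lower at 1 h of BDNF (-0.82, 0.098, lost without control 1 h A or B, control 6 h B or either BDNF 1 h library, 0.101 to 0.513, alternatives 0.0614 to 0.513) and at 6 h of KCl (-1.36, 0.027, lost without either KCl 6 h library, 0.190 to 0.194, alternatives 0.0196 to 0.194). The other (chr2:65701262-65701484) was higher at 10 h of BDNF (1.56, 0.034), lost without either BDNF 10 h library (0.184 to 0.377, alternatives 2.2e-04 to 0.377).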

How the data were processed

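RNA-seq and ATAC-seq libraries (18 each, 2 per group) were grouped by their labels. The authors aligned RNA reads to mm10 with TopHat2 using GENCODE transcripts. The program that counted reads per gene is not given in the sources used here. As deposited, an RNA value is a signal that is never negative: the read count of a gene over the DESeq2 size factor of its library. Every value came out as whole reads within 0.01, which gave the depth per library. For ATAC, the authors used Bowtie2 for alignment and MACS2 to call peaks in each sample, and counted reads over the merged peaks with DiffBind. The deposited ATAC values of 58177 peaks are raw counts (lowest value 1), although named as normalised, so LOESS offsets (span 0.3) were computed here. The authors' deposited tables of genes and peaks also hold log2 fold changes, means, statistics (scores) and p-values from their own comparisons, and only their gene names were used.

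RNA was tested with limma 3.58.1 in R 4.3.3 on log2(value + 1) with trend and robust options and 7 levels, and ATAC with edgeR 4.0.16 (quasi-likelihood, the same 7 levels, peaks with a mean of at least 10). Controls were compared over time with 9 levels. An adjusted p below 0.1, as in the study, was a call. Alternatives were a pseudocount of 0.5, no filter, TMM, edgeR and DESeq2 1.42.0 on counts, controls of the same time, a threshold of 0.01, each library left out, and a replicate block. Intervals are at 95%. The scripts were tested on simulated data. Members and lists were chosen with earlier results of these data known. All members were named. From each further list the up to 3 genes with the largest called change were named. Some genes that this rule names are not reported here. Likewise the 2 genes most like each member, promoter peaks, and the 2 peaks per member with the smallest adjusted p were named. The floor given for Scn4b covers counting error only. Protein sequences were not used here.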

Additional observations from a re-analysis of the deposited data

Results flagged for a closer look

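In the 6 controls, 3 peaks of beta subunit genes had 1 library far from the others. The intronic Scn2b peak was 21.1 in control 6 h library A and 14.2 to 16.6 elsewhere, a gap of 0.651 of the control range. The peak shared by Scn2b and Scn4b was 34.6 in the same library and 23.3 to 27.4 elsewhere (0.638). The Scn3b promoter peak was 215 in control 10 h library B and 141 to 166 elsewhere (0.664). Each gap exceeded the 95% limit of Dixon's test for 6 samples. In all, 25 such groups were tested, and chance alone gives about 1 in 20. Among the members' RNA the highest gap ratio was 0.528.

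The change over time differed between the stimuli for 5 members. From 1 h to 6 h, KCl minus BDNF was 1.60 for Scn1a, 0.58 for Scn3a, -0.53 for Scn8a, -1.24 for Scn2b and 0.25 for Scn3b on the log2 scale, and from 6 h to 10 h it was -0.50 for Scn3a, each by the interaction term of limma. The value for Scn3b and the one for Scn3a from 6 h to 10 h lost their calls when single libraries were left out.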

How the results depend on the processing

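Of 273 recomputed counts of called members or peaks, 224 stayed within 1.5 times the reported count and 49 did not. Of 4770 recomputed values of single genes and peaks, 4454 kept direction and side of the threshold, 252 lost a call and 64 gained one. No called value reversed, while 186 values that were called on neither side changed sign. At a threshold of 0.01, members called were 3 at BDNF 10 h (6 reported), 2 at KCl 1 h (6), 2 at KCl 10 h (4), 0 from 6 h to 10 h of BDNF (1) and 0 from 6 h to 10 h of KCl (2), and peaks called were 3 at BDNF 1 h (5), 1 at BDNF 10 h (4), 1 at KCl 6 h (3) and 0 at KCl 10 h (1). Against controls of the same time only, members called were 3 at BDNF 10 h, 2 at KCl 1 h and 2 at KCl 10 h, and peaks called were 1 at BDNF 6 h (3), 1 at BDNF 10 h and 0 at KCl 10 h. DESeq2 called 2 members from 6 h to 10 h of BDNF, and 6 peaks at BDNF 6 h, 1 at KCl 1 h (0), 5 at KCl 6 h and 3 at KCl 10 h. TMM scaling gave 5, 1, 5 and 3 peaks there, and no filter 5 at BDNF 6 h and 1 at KCl 1 h. With each library left out in turn, members called were 3 to 6 at BDNF 10 h, 3 to 5 at KCl 1 h, 0 from 6 h to 10 h of BDNF and 0 to 3 from 6 h to 10 h of KCl, and peaks called were 3 to 6, 1 to 5 and 2 to 5 at BDNF 1, 6 and 10 h and 0 to 1, 0 to 3 and 0 to 2 at KCl 1, 6 and 10 h. The cause of these moves was not tested, apart from the fewer samples in the fits with fewer controls or libraries and the stricter threshold.

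The letters A and B of the RNA columns stand in no label. Deviations of same-lettered libraries correlated at -0.315 to 0.418 over 36 pairs of groups (median 0.0649, 13 over 0.1). The letter was therefore not used to pair libraries. Whether some libraries share a culture or batch cannot be told from these values. A replicate block on the letter kept the count of called members in every comparison except 1 h to 6 h of BDNF, where 3 were called instead of 2 (Scn1a, adjusted p = 0.0971). No paired analysis was possible for ATAC because its columns carry no number. Depth limits Scn4b and the peaks of under about 10 reads.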

Other observations

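Scn4a, the skeletal muscle alpha subunit, is a further family gene whose mean over the 18 libraries was under 10, so it was not tested above. Its normalised read count was 0 to 1.14 in the 6 controls and at most 2.26 in the 6 BDNF libraries. In the KCl libraries it was 13.9 and 17.3 at 1 h, 33.6 and 47.2 at 6 h, then 13.1 and 13.4 at 10 h, above every control and every BDNF library. Without the filter on low values, a setting planned for all results, limma gave log2 fold changes of 3.40, 4.70 and 3.19 (adjusted p = 2.8e-05, 2.5e-07 and 6.8e-05). The controls held 0 to 2 reads, so these fitted values depend on the pseudocount and are no measured fold.

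Scn11a, an alpha subunit of sensory neurons, was also under the filter. It had 1.20 to 12.4 in the controls, 18.016 and 25.6 at 6 h of BDNF, 20.3 and 20.4 at 10 h of BDNF, and 0 and 1.09 at 10 h of KCl. The same fit gave 1.56 and 1.48 at 6 and 10 h of BDNF (adjusted p = 0.033 and 0.047) and -2.40 at 10 h of KCl (8.4e-04). Scn10a, another sensory alpha subunit, was called in none of the 6 comparisons. Both genes rest on few reads per library.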
